A study of Mus musculus with 85 samples.

Results

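Integrins and vascular adhesion molecules were followed through 85 RNA-seq libraries of mouse liver cells and cultured macrophages. The genes were taken by symbol from a list of 18 integrin alpha chains, 8 integrin beta chains and 9 other adhesion molecules (Icam1, Icam2, Vcam1, Pecam1, Sele, Selp, Selplg, Jam2 and Jam3). All 35 were among the 23608 genes of the deposited tables.

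The libraries came from male mice of the inbred strains C57BL/6J, BALB/cJ and A/J and of CB6F1/J, the hybrid of BALB/cJ with C57BL/6J, in 30 groups of 2 to 5 libraries. Kupffer cells are macrophages resident in liver sinusoids. Outside the NSG hosts described below, they were sorted as CD146-negative, CD45-positive, F4/80-high cells with intermediate CD11b. CD11b is the product of Itgam, so the level of Itgam was part of the gate. Untreated livers gave 2 Kupffer libraries for each inbred strain and 4 for CB6F1/J. They also gave 12 libraries of sorted liver sinusoidal endothelial cells (LSECs), 11 of stellate cells and 7 of hepatocytes from the inbred strains. Kupffer cells were further taken 2 h after 0.1 mg/kg lipopolysaccharide (LPS) given into the peritoneum of fasted mice (2 BALB/cJ, 2 C57BL/6J and 5 CB6F1/J). Others came from mice fed for 30 weeks on the Amylin liver NASH (AMLN) diet, rich in fat, fructose and cholesterol (4 A/J, 3 BALB/cJ and 4 C57BL/6J). The study's methods call the C57BL/6 mice of the diet experiments lab-maintained, unlike the purchased mice of the other groups, and the labels call them C57BL/6J. Diet, age at harvest and, in C57BL/6J, the source of the mice cannot be told apart in the diet comparisons. For LPS, the study's methods give fasted littermates without injection as controls, and the labels do not say whether the untreated mice were fasted. Whether fasting differed in the LPS comparisons is therefore not known. NSG mice, immunodeficient hosts treated with busulfan, gave donor-derived Kupffer cells months after transfer of marrow from C57BL/6J, BALB/cJ or CB6F1/J (3 each). The gate for these was F4/80-positive and CD11b-positive, with the donor's histocompatibility type. The antibodies for that type differed between BALB/cJ and C57BL/6J donors, and the study's methods name none for CB6F1/J donors. Bone marrow-derived macrophages (BMDMs) of all 4 genotypes were cultured with PBS or with 100 ng/ml Kdo2-lipid A (KLA), a pure activator of the LPS receptor TLR4, for 2 h (2 each).

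The inbred libraries held 5254797 to 42779190 counts and the hybrid libraries 50141540 to 125294454, as the mean of the counts on both parental genomes. Summed over 12 markers each, Kupffer markers stood at 29913 to 35966 TPM (transcript counts per length and library total) in untreated Kupffer cells, LSEC markers at 14768 to 19199 TPM in LSECs and stellate markers at 16391 to 35106 TPM in stellate cells. The stellate libraries also carried 450.4 to 14003 TPM of Kupffer markers and 3957 to 7904 TPM of LSEC markers, and the LSEC libraries 945 to 9383 TPM of hepatocyte markers. Levels are given in TPM, which are per length of transcript and relative to the library total. Differences are log2 differences of TMM-scaled counts with their standard error (SE). Adjusted p is from edgeR's quasi-likelihood test with Benjamini-Hochberg adjustment over all genes tested. A gene is called changed at an adjusted p under 0.05 with a log2 difference over 1. In a test over 3 strains, the call rests on the adjusted p of the joint test and the largest difference among the pairs. The adjusted p printed for a pair of strains is that of the pair. A gene was tested where its mean was over 8 TPM in at least 1 of the groups compared, so a member at low levels everywhere was not tested. A gene over 8 TPM in 1 group alone passed through that group, so its mean TPM had to differ, though it need not be called. In bulk RNA of sorted cells, fewer cells of a type and less RNA per cell cannot be told apart.

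Integrins are receptors made of an alpha and a beta chain that bind the extracellular matrix or counter-receptors on other cells. Leukocytes use the beta2 and alpha4 integrins to hold to ICAM and VCAM proteins on vessel walls, after selectins have slowed them by binding sugars on PSGL-1, the product of Selplg. In the liver, Kupffer cells lie inside the sinusoids in contact with the endothelium and, through it, with stellate cells. Endotoxin raises ICAM, VCAM and selectin genes in many vessels through NF-κB.

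The promoters of 4 members that rose in LPS-treated Kupffer cells are shown first, since NF-κB motifs are known from such promoters. Each is the 250 bases before the transcription start in RefSeq on GRCm38.p6, on the strand of the gene. Capitals mark matches to GGANNTTCC, searched on both strands. Such a match stood in Icam1 and Sele and not in Selp or Itga5, and no match says only that these letters are not in this window. Of 32851 promoters of that length, 1178 (3.59%) held the motif, and of the 21 members with an entry 2 did. For Sele the table's start lies downstream of the start of the annotated gene. Vcam1 had no entry.
Icam1, chr9:21015690-21015939, plus strand: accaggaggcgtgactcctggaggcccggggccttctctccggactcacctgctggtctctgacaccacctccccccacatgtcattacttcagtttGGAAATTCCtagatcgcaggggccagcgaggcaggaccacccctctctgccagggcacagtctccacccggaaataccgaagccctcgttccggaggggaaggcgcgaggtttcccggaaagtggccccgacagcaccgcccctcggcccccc
Sele, chr1:164047984-164048233, plus strand: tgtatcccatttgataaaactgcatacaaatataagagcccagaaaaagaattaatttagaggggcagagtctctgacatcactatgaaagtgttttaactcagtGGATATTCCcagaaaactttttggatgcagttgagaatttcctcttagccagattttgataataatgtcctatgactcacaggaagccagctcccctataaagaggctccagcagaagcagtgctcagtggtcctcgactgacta
Selp, chr1:164115014-164115263, plus strand: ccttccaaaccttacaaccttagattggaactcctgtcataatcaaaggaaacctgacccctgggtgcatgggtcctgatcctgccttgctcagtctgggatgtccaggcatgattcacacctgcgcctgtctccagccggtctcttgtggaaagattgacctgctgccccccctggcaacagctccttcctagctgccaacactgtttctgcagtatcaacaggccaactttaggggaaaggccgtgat
Itga5, chr15:103366792-103367041, minus strand: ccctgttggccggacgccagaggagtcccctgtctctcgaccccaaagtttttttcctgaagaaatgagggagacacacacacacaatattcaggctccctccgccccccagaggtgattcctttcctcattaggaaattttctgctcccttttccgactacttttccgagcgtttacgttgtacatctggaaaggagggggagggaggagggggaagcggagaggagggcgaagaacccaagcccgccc

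The liver's cell types divided the family between them. Taking the untreated inbred libraries, 15 members were over 8 TPM in Kupffer cells, 15 in LSECs, 21 in stellate cells, 2 in hepatocytes and 13 in BMDMs. The other 11 (Itga2, Itga7, Itga10, Itga11, Itgad, Itgae, Itgax, Itgb4, Itgb6, Itgb8 and Sele) stayed at or under 8 TPM in each of the 5 cell types. Inbred BMDM counts were deposited in steps of 0.5, unlike those of inbred liver cells, so BMDM levels stand beside the others without a test.

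**Figure D1:**
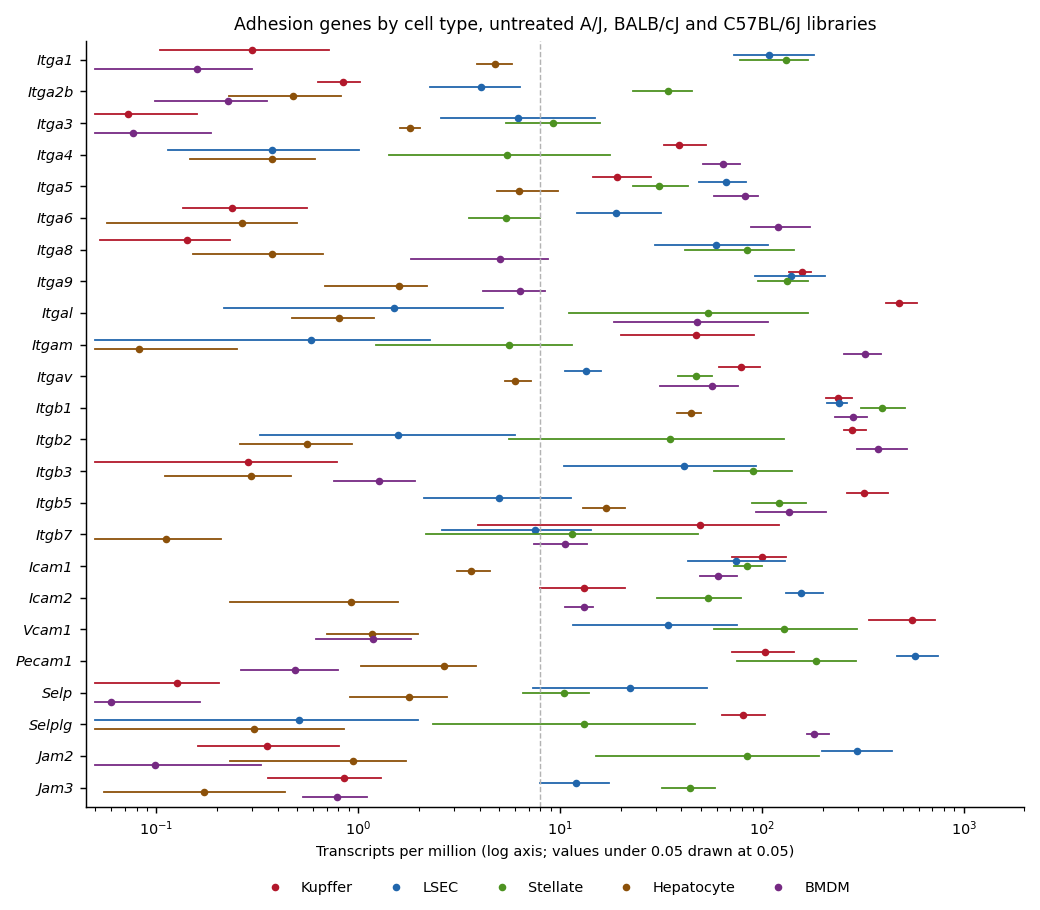
Levels of the 24 members over 8 TPM in at least 1 cell type, in TPM on a log axis, as the mean (point) and range (line) over untreated inbred libraries (6 Kupffer, 12 LSEC, 11 stellate, 7 hepatocyte and 6 PBS BMDM). The dashed line is 8 TPM. Itgal, Itgb2 and Selplg were high in macrophages and had means under 2 TPM in LSECs and hepatocytes, while Jam2, Itga1 and Itga8 were high in LSECs and stellate cells and under 1 TPM in Kupffer cells.

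Among leukocyte integrins, Itgal (the alpha chain of LFA-1, a receptor for ICAMs) was the highest integrin of Kupffer cells, at 476 ± 67.9 TPM (SD, n = 6), ranging from 412 to 591 (median 459.7) TPM. Its partner Itgb2 was at 279 ± 25.3 TPM in Kupffer cells and 376 ± 104 TPM in BMDMs (n = 6 each). Itgam, the alpha chain of Mac-1, was at 47.03 ± 24.4 TPM in Kupffer cells and 323 ± 54.96 TPM in BMDMs, ranges that did not overlap. Kupffer cells thus held more Itgal than Itgam, and BMDMs more Itgam than Itgal, while the Itgb2 ranges overlapped. Of Itgam's exon bases, 68.7% are shared with the overlapping gene model Gm49368 on the same strand, so its counts may be split. Itga4, which pairs with Itgb1 to bind VCAM-1, was at 38.8 ± 7.66 TPM in Kupffer cells and 64.5 ± 9.10 TPM in BMDMs. Itgb7, the other partner of Itga4, ranged from 3.91 to 122 (median 46.4) TPM over the Kupffer libraries.

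Of the integrins that bind matrix, Itgb1, the beta chain shared by most alpha chains, was high in every cell type, from 44.6 ± 4.75 TPM in hepatocytes (n = 7) to 395 ± 68.9 TPM in stellate cells (n = 11). Itgb5 and Itgav, the chains of a vitronectin receptor, were at 322 ± 61.1 and 78.9 ± 15.1 TPM in Kupffer cells, against 5.01 ± 2.78 and 13.4 ± 1.80 TPM in LSECs (n = 12). Itga9, which binds tenascin and osteopontin, lay close together by mean in Kupffer cells, LSECs and stellate cells (158 ± 17.4, 140.3 ± 36.2 and 133 ± 20.5 TPM) and far lower in hepatocytes and BMDMs. Itga1, a collagen receptor, and Itga8, a nephronectin receptor, were at 109 ± 33.1 and 59.3 ± 27.6 TPM in LSECs and 132 ± 33.4 and 84.9 ± 33.04 TPM in stellate cells. Both were under 1 TPM in every untreated inbred Kupffer library. Itga6, a laminin receptor chain, was at 120.1 ± 39.1 TPM in BMDMs and no higher than 0.559 TPM in Kupffer cells.

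Of the other adhesion molecules, Vcam1, the counter-receptor of alpha4 integrins, was the highest member in Kupffer cells, at 557 ± 132 TPM, ranging from 339 to 723 (median 566) TPM. It was at 34.4 ± 17.3 TPM in LSECs, 129 ± 68.8 TPM in stellate cells and 1.18 ± 0.443 TPM in BMDMs. Pecam1, an adhesion molecule of endothelial junctions also found on leukocytes, and Jam2, a junctional molecule, were highest in LSECs, at 576 ± 77.2 and 297 ± 91.8 TPM. Kupffer cells held 103 ± 28.8 TPM of Pecam1 but 0.352 ± 0.233 TPM of Jam2. Icam1 lay within a narrow band over Kupffer cells, LSECs, stellate cells and BMDMs, with means from 61.04 to 99.96 TPM, while Icam2 was highest in LSECs, at 157 ± 22.1 TPM. Selp, the P-selectin that platelets and endothelium display, was at 22.2 ± 13.9 TPM in LSECs and Sele, the E-selectin, at 1.16 ± 0.853 TPM. Itga2b and Itgb3, the chains of the platelet fibrinogen receptor, were highest in stellate libraries (34.5 ± 6.75 and 90.4 ± 23.8 TPM). In those libraries 9 platelet markers, Pf4 left out, together came to 2.18 to 5.78 TPM. Pf4, which macrophages also express, was at 3.6 to 26.6 TPM there, and the sum with Pf4 was 7.7 to 29.2 TPM. The part of platelets in the Itga2b and Itgb3 levels was not tested.

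The 4 liver cell types were tested in pairs with strain in the fit. Between LSECs and Kupffer cells 20 of 23 tested members were called, 11 higher and 9 lower in LSECs, beside 38.3% of all genes tested. The members highest in LSECs relative to Kupffer cells were Jam2 at 9.34 (SE 0.44, adjusted p = 2.16e-19), Itga8 at 8.32, Itga1 at 8.28, Selp at 7.12 and Itgb3 at 6.87. The lowest were Itgal at -8.84 (SE 0.56, adjusted p = 6.46e-16), Itgb2 at -8.11, Selplg at -7.96, Itga4 at -7.03 and Itgam at -6.78. Also called were Itga6 (6.04), Itga3 (6.001), Jam3 (3.50), Icam2 (3.34), Pecam1 (2.18) and Itga5 (1.53), and, lower, Itgb5 (-6.29), Vcam1 (-4.28), Itgav (-2.83) and Itgb7 (-2.33). Icam1 (-0.73), Itga9 (-0.46) and Itgb1 (-0.27) did not pass the fold limit. Itga1, Itga3, Itga6, Itga8, Itgb3, Selp, Jam2 and Jam3 passed the 8 TPM filter through LSECs alone. Itga4, Itgal, Itgam, Itgb2, Itgb5 and Selplg passed it through Kupffer cells alone. The mean TPM of these members had to differ. Of the genes that act with them, 20 of 28 integrin adaptors were called (10 higher, among them Bcar1 at 6.62 and Fermt2 at 6.47, and 10 lower, among them Apbb1ip at -8.39 and Ptk2b at -6.32). Of the integrin ligands 16 of 18 were called, all higher in LSECs, with the laminin Lama4 at 9.90. Of other vascular adhesion molecules 15 of 16 were called (12 higher, with Mcam at 9.70 and Cldn5 at 9.66, and 3 lower), and of selectin ligand enzymes 5 of 8 (2 higher, with Chst2 at 8.30, and 3 lower, with Fut7 at -7.22).

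Between LSECs and stellate cells 14 of 23 tested members were called (background 20.9%). Higher in LSECs were Jam2 (1.82, SE 0.23, adjusted p = 2.76e-08), Itga6 (1.71), Pecam1 (1.53) and Icam2 (1.44). Lower were the beta3 and beta5 chains Itgb3 (-1.56) and Itgb5 (-4.71) with Itgav (-1.92) and Itga2b (-3.18), Jam3 (-1.99) and Vcam1 (-2.005). The leukocyte genes Itgal (-5.21), Selplg (-4.68), Itgb2 (-4.52) and Itga4 (-3.83) were lower too, in the comparison where stellate libraries carry up to 14003 TPM of Kupffer markers and the part of those cells was not tested. Here Itga6 passed the 8 TPM filter through LSECs alone. Itga2b, Itga4, Itgal, Itgb2, Itgb5 and Selplg passed it through stellate cells alone, so their mean TPM had to differ. Between LSECs and hepatocytes 16 of 18 were called (background 61.7%), 15 higher in LSECs, led by Jam2 (7.04), Pecam1 (6.42), Icam2 (6.09) and Itga8 (5.87). The others higher were Itgb3 (5.51), Itgb7 (5.07), Itga9 (5.05), Itga6 (4.82), Jam3 (4.67), Vcam1 (3.52), Itga1 (3.12), Icam1 (2.96), Selp (2.24), Itga5 (2.04) and Itgb1 (1.06). Itgb5 was lower, at -3.13. All these called members but Itga5 and Itgb1 passed the 8 TPM filter through 1 of the cell types alone, so their mean TPM had to differ. Under scaling by library totals the median of all genes moved from 0.09 to 1.04 in this comparison, and the Itgb1 call was lost under DESeq2's size factors (0.98) and without the 3 LSEC libraries high in Alb (0.94; A/J replicates 1 and 2 and BALB/cJ replicate 1). Between Kupffer and stellate cells 17 of 23 were called (background 36.6%). Higher in Kupffer cells were Itgal (3.64), Itgb2 (3.61), Itgam (3.38), Selplg (3.29), Itga4 (3.21), Vcam1 (2.28), Itgb7 (2.13) and Itgb5 (1.59). Lower were Itga8 (-8.93), Itga1 (-8.69), Itgb3 (-8.42), Jam2 (-7.51), Itga3 (-6.79), Selp (-6.18), Jam3 (-5.47), Itga2b (-5.15) and Icam2 (-1.90). All of these lower members but Icam2 passed the 8 TPM filter through stellate cells alone, and Itgam passed it through Kupffer cells alone.

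Untreated Kupffer cells of the 3 strains differed in few members, and Itgb7 stood out among them. Itgb7 (chr15:102215994-102233405, minus strand) was at 122 and 61.4 TPM in A/J, 31.4 and 73.2 in C57BL/6J and 3.91 and 4.06 in BALB/cJ. The BALB/cJ libraries lay below all others, while A/J and C57BL/6J overlapped. Against BALB/cJ, the difference was 4.52 (SE 0.53, adjusted p = 0.0228) for A/J, the single call among 15 tested members (background 3.17%). BALB/cJ minus C57BL/6J was -3.71 (SE 0.59, adjusted p = 0.0277), with 2 of 15 called (background 5.93%). Both calls were lost without BALB/cJ replicate 1 or replicate 2, at differences of 4.50 and 4.54 for A/J and -3.68 and -3.73 for C57BL/6J. The size of the difference moved little. In both comparisons Itgb7 passed the 8 TPM filter through A/J or C57BL/6J alone, so its mean TPM had to differ.

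Icam2, a counter-receptor of LFA-1, was at 21.01 and 19.2 TPM in C57BL/6J, above 9.43 and 10.8 TPM in A/J and 10.8 and 7.96 TPM in BALB/cJ, with no overlap. It was the other call, at -1.08 (SE 0.20, adjusted p = 0.00713) for BALB/cJ minus C57BL/6J and -1.01 (SE 0.19, adjusted p = 0.0113) for A/J minus C57BL/6J, where 1 of 15 was called (background 4.63%). Both sit at the fold limit. The A/J call was lost without A/J replicate 1 (-0.99), without C57BL/6J replicate 1 (-0.97) and under library totals (-0.99), and the BALB/cJ call without BALB/cJ replicate 2 (-0.88). Icam1 was lower in BALB/cJ (71.4 and 72.8 TPM) than in C57BL/6J (124 and 131 TPM) at -0.81 (SE 0.09, adjusted p = 0.000665), under the fold limit. Vcam1 was not called, with 572 and 723 TPM for A/J, 339 and 499 for BALB/cJ and 651 and 559 for C57BL/6J, although both BALB/cJ libraries lay below the rest. The median log2 difference of the tested members was -0.08, 0.01 and 0.05 in the 3 comparisons, beside -0.003, 0.003 and 0.000 over all genes tested.

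BMDMs differed by strain in other members. Itgal was at 108 and 84.2 TPM in C57BL/6J and 24.1 and 20.7 TPM in A/J, a difference of -2.18 (SE 0.13, adjusted p = 1.02e-06). With Itgb5 at -1.08 (SE 0.09, adjusted p = 1.37e-07), it made 2 calls among 13 tested members (background 5.54%). Itgb5 was at 93.4 and 107 TPM for A/J, 114 and 101 for BALB/cJ and 208 and 194 for C57BL/6J, and its call was lost without A/J replicate 1 (-0.99) and under library totals (-0.98). Itgav, at 41.2 and 31.5 TPM in BALB/cJ and 76.4 and 73.8 in C57BL/6J, was the call of 14 tested between these strains (background 4.55%), at -1.04 (SE 0.11, adjusted p = 1.34e-07), lost without BALB/cJ replicate 2 (-0.86). In this comparison Itgal was at -1.90 (SE 0.41, adjusted p = 0.0756), with 32.7 and 18.6 TPM in BALB/cJ. Between A/J and BALB/cJ edgeR called 0 of 14 (background 4.35%), with 6 at an unadjusted p under 0.05, and the DESeq2 test 0.

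The strain effect itself differed between Kupffer cells and BMDMs for 6 of 16 tested members, beside 14.7% of all genes tested. Itgal was at 591 and 431 TPM in BALB/cJ and 508 and 489 TPM in C57BL/6J Kupffer cells, which overlapped, but was higher in C57BL/6J than in BALB/cJ BMDMs by level, and the difference of the BALB/cJ minus C57BL/6J effects was 1.97 (SE 0.35, adjusted p = 0.00514). Itgb5 was higher in Kupffer cells of BALB/cJ (424 and 366 TPM) than of C57BL/6J (303 and 273 TPM) and lower in its BMDMs, an effect difference of 1.39 (SE 0.15, adjusted p = 4.81e-05). Vcam1 (A/J minus BALB/cJ) and Pecam1 (A/J minus C57BL/6J) differed in effect by 1.88 (SE 0.30, adjusted p = 0.000910) and 2.18 (SE 0.34, adjusted p = 0.000789), but both were under 2 TPM in PBS BMDMs. The A/J minus BALB/cJ effect on Itgb7 differed by 3.97 (SE 0.74, adjusted p = 0.00725), lost without Kupffer BALB/cJ replicate 1 (3.94) or 2 (3.99). The BALB/cJ minus C57BL/6J effect on Itgav differed by 1.21 (SE 0.30, adjusted p = 0.0216), lost without Kupffer BALB/cJ replicate 1 (0.91), Kupffer C57BL/6J replicate 2 (1.10), BMDM BALB/cJ replicate 2 (1.02) or BMDM C57BL/6J replicate 1 (1.17) or 2 (1.24).

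LSECs of the strains differed in 6 of 17 tested members, against 6.53% of all genes. Itgb3 (chr11:104608000-104670476, plus strand), the beta chain of vitronectin and fibrinogen receptors, was at 47.1, 49.1, 36.2 and 38.8 TPM in A/J. It was at 12.9, 13.3, 10.5 and 11.02 TPM in BALB/cJ and 55.4, 60.3, 93.8 and 65.8 TPM in C57BL/6J. The 3 strains did not overlap, and BALB/cJ lay lowest, at -2.52 (SE 0.17, adjusted p = 2.28e-07) against C57BL/6J. The A/J minus BALB/cJ difference was 1.88 (SE 0.17, adjusted p = 5.17e-06). Its usual partner Itgav was not called, with from 10.6 to 16.03 (median 13.96) TPM over the 12 libraries. Itga8 was ordered the other way, at 61.7, 95.5, 108 and 101 TPM in BALB/cJ and 32.7, 29.6, 38.9 and 42.7 TPM in C57BL/6J, a difference of 1.36 (SE 0.20, adjusted p = 0.000599).

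Of the counter-receptors for leukocytes, Icam1 and Vcam1 were called. Icam1 was at 59.7, 52.1, 43.3 and 46.6 TPM in A/J, 54.6, 64.9, 64.4 and 60.96 TPM in BALB/cJ and 109.7, 113, 97.2 and 131 TPM in C57BL/6J. The C57BL/6J libraries lay above all others, at -1.11 (SE 0.11, adjusted p = 5.10e-06) for A/J minus C57BL/6J, and A/J overlapped BALB/cJ. Vcam1 was at 23.03, 22.9, 11.7 and 17.9 TPM in A/J against 40.3, 47.9, 34.04 and 75.8 TPM in C57BL/6J, at -1.35 (SE 0.32, adjusted p = 0.0130). Its call was lost without A/J replicate 3 (-1.17) or 4 (-1.31). Itga3, a laminin receptor chain, was at -1.48 (SE 0.39, adjusted p = 0.0202) and was lost without C57BL/6J replicate 3 (-1.37) or 4 (-1.27) and without the 3 libraries high in Alb (-1.29). Itgb7 was at -1.02 (SE 0.32, adjusted p = 0.0375) and was lost without any of A/J replicates 1 and 4, BALB/cJ replicates 1, 3 and 4 or C57BL/6J replicates 1, 2 and 4 (differences from -1.05 to -0.78), and without the 3 libraries high in Alb (-1.15). Itga3 and Itgb7 passed the 8 TPM filter through C57BL/6J alone, so their mean TPM had to differ between strains. Itgb3, Itga8 and Icam1 stayed called in each of the alternatives run.

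**Figure D2:**
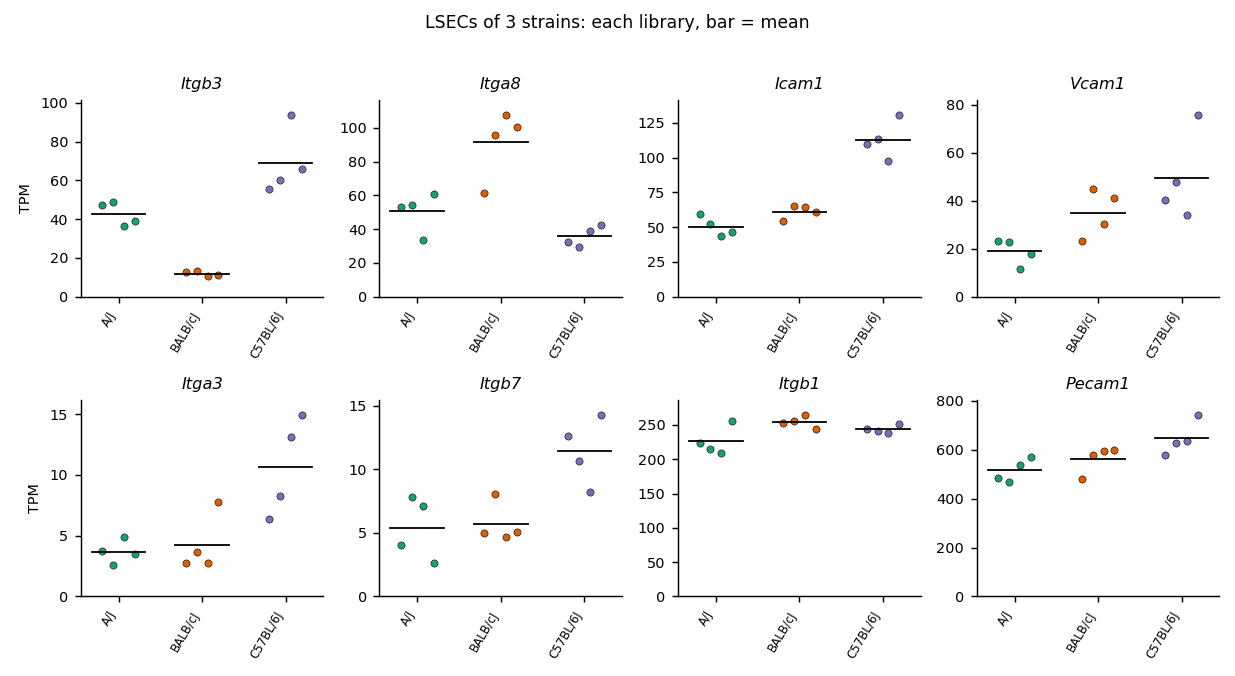
Levels in TPM of 8 members in LSECs of the 3 strains, each point 1 library (4 a strain) and each bar the mean. Itgb3 sits at 10.5 to 13.3 TPM in BALB/cJ and at 36.2 TPM or more in the other strains, Icam1 is at 97.2 TPM or more in the C57BL/6J libraries, and Itgb1 and Pecam1 were not called.

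Stellate libraries of the strains differed in 9 of 22 tested members (background 14.6%). By their means, 6 of the called genes were lowest in BALB/cJ and highest in A/J, with A/J minus BALB/cJ differences of 3.03 for Itgb7, 2.92 for Selplg, 2.47 for Itgb2, 2.24 for Itgal, 2.20 for Itga4 and 1.41 for Vcam1. The Kupffer markers in these libraries summed to 4570.3 to 14003 TPM in A/J, 450.4 to 1787 TPM in BALB/cJ and 2714 to 3621 TPM in C57BL/6J, and their part in these 6 differences was not tested. These 6 are genes that Kupffer cells hold over 8 TPM. Of the other members over 8 TPM in Kupffer cells, Itga5, Itga9, Itgav, Itgb1, Itgb5, Icam1, Icam2 and Pecam1 were not called. The other calls were genes low in Kupffer cells. Jam2 was at 50.3, 38.2, 37.8 and 15.1 TPM in BALB/cJ and 193, 179 and 113 TPM in C57BL/6J (-2.17, SE 0.31, adjusted p = 0.000501), while LSEC markers summed to 3957 to 6518 and 5684 to 7797 TPM there. Itga8 was at 52.9, 59.4, 41.8 and 57.6 TPM in A/J and 107, 119, 117 and 144 TPM in BALB/cJ, without overlap, at -1.21 (SE 0.14, adjusted p = 0.000217). Itga3 was at -1.13 (SE 0.13, adjusted p = 0.000140) for A/J minus C57BL/6J. Of the stellate calls, Itga4 and Itgb7 passed the 8 TPM filter through A/J alone, so their mean TPM had to differ. In hepatocytes 3 members were tested and edgeR called 0 (background 10.9%), with 2 at an unadjusted p under 0.05 and 0 called by DESeq2.

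Endotoxin raised Icam1 and Vcam1, counter-receptors for leukocyte integrins, in Kupffer cells of each genotype. Icam2 was not called, at -0.15, -0.63 and -0.46 in BALB/cJ, C57BL/6J and CB6F1/J. Icam1 (chr9:21015940-21028814, plus strand) went from 71.4 and 72.8 to 1103 and 1016 TPM in BALB/cJ. It went from 124 and 131 to 1085 and 1297 TPM in C57BL/6J, and in CB6F1/J from 101, 85.95, 77.8 and 97.2 to 1007, 845, 1051, 1034 and 796 TPM. No treated library overlapped a control, and the differences were 4.33 (SE 0.13, adjusted p = 1.17e-05), 3.79 (SE 0.20, adjusted p = 0.000478) and 4.13 (SE 0.11, adjusted p = 2.80e-11). Vcam1 (chr3:116110020-116129688, minus strand) went from 339 and 499 to 1589.9 and 1213 TPM in BALB/cJ and from 651 and 559 to 1103 and 1345 TPM in C57BL/6J. In CB6F1/J it went from 385, 438, 525 and 399 to 996, 1012, 1009, 946 and 925 TPM, and again no treated library overlapped a control. The differences for Vcam1 were 2.19 (SE 0.22, adjusted p = 0.000384), 1.58 (SE 0.20, adjusted p = 0.00258) and 1.91 (SE 0.10, adjusted p = 5.23e-09). Part of Icam1's exon sequence (11.7% of its bases) lies antisense to Gm47079, and no strand setting of the counting is given in the sources used here.

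Itga5, the fibronectin receptor alpha chain, rose from 16.7 and 16.4 to 152 and 114 TPM in BALB/cJ and from 23.9 and 28.2 to 131 and 126 TPM in C57BL/6J. The differences were 3.46 (SE 0.17, adjusted p = 2.98e-05), 2.86 (SE 0.17, adjusted p = 0.000478) and, in CB6F1/J, 3.25 (SE 0.10, adjusted p = 5.70e-11). Itgb5 fell from 424 and 366 to 116 and 108 TPM in BALB/cJ and from 303 and 273 to 77.2 and 54.7 TPM in C57BL/6J, at log2 differences of -1.36 (SE 0.13, adjusted p = 0.000329), -1.58 (SE 0.18, adjusted p = 0.00198) and -1.43 (SE 0.09, adjusted p = 1.83e-08) in BALB/cJ, C57BL/6J and CB6F1/J. Itgax, the alpha chain of the dendritic cell integrin CD11c, stayed low but rose in BALB/cJ, from 2.73 and 3.37 to 11.4 and 8.72 TPM (2.18, SE 0.21, adjusted p = 0.000325), and in CB6F1/J (1.84, SE 0.14, adjusted p = 8.32e-08). In C57BL/6J Itgax was at 5.34 and 7.64 TPM after LPS and was not tested.

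Itgav, the alpha chain of vitronectin receptors, was called in C57BL/6J and CB6F1/J and not in BALB/cJ. It went from 83.1 and 68.9 to 161 and 175 TPM in C57BL/6J, a difference of 1.70 (SE 0.17, adjusted p = 0.00146). In BALB/cJ it was at 97.9 and 67.7 TPM before and 93.03 and 69.1 TPM after LPS, at 0.42 (SE 0.22, adjusted p = 0.145), and the groups overlapped. In CB6F1/J it went from 63.9, 53.7, 55.3 and 62.7 to 74.4, 77.2, 78.5, 73.9 and 56.96 TPM, at 1.03 (SE 0.09, adjusted p = 5.02e-07), a call lost without Control replicate 2 (0.996) or LPS replicate 2 (1.000, not over the limit) and under library totals (0.34). The test of the strain difference in the response gave -1.31 (SE 0.31, adjusted p = 0.154) for BALB/cJ minus C57BL/6J, which missed the limit on adjusted p in edgeR, while DESeq2 called it. By edgeR 0 of 18 members were called for that difference (background 0.11%), with 4 at an unadjusted p under 0.05, and by DESeq2 2, Itgav and Itgb7. Itgav shares 5.9% of its exon bases with Gm13684 on the opposite strand.

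Both selectins were near 0 in control Kupffer cells. Sele had 0 counts in both BALB/cJ controls and was at 4.87 and 16.8 TPM after LPS, which is at least 129.6-fold higher when the controls are set at 3 counts over the group. In C57BL/6J it went from 1 count in the controls to 3.50 and 10.9 TPM, a ratio of 282.3 with a counting interval of 50.1 to 11199.9, and was below the 8 TPM needed for a test. In CB6F1/J it went from 0.007, 0.018, 0 and 0.045 to 9.62, 6.999, 12.3, 11.04 and 10.6 TPM (9.94, SE 0.45, adjusted p = 1.06e-09). Selp was at 0.06 and 0.037 TPM in BALB/cJ controls and 3.01 and 14.7 TPM after LPS, a ratio of 114.7 over 3 control counts (interval 38.9 to 559.1). In C57BL/6J it reached 6.85 and 41.5 TPM (7.71, SE 1.31, adjusted p = 0.00651) and in CB6F1/J 25.6, 10.3, 27.6, 26.9 and 28.1 TPM (8.80, SE 0.49, adjusted p = 2.78e-08). Within each inbred strain the replicate 2 library after LPS was the higher for both selectins. The BALB/cJ calls for Sele (11.27, SE 1.62, adjusted p = 0.00512) and Selp (7.72, SE 1.29, adjusted p = 0.00472) were lost without either BALB/cJ control, with differences of 11.14 and 11.27 for Sele and 8.13 and 7.50 for Selp. Intervals cover counting error only.

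Both selectins are products of endothelium, and P-selectin of platelets. The LSEC markers summed to 342 to 609 TPM in the 9 LPS libraries and 378 to 648 TPM in the 8 controls of those genotypes, and the 5 markers of large vessels to 0.57 to 4.53 and 0.573 to 1.82 TPM. The 10 platelet markers summed to 92.8 to 609 TPM after LPS and 26.3 to 194 TPM in controls, but without Pf4, which macrophages also express, the other 9 summed to at most 1.92 TPM after LPS and 3.77 TPM in controls. Neutrophil markers summed to 176 to 332 TPM against 76.2 to 124 TPM, monocyte markers to 108 to 251 TPM against 10.5 to 167 TPM and hepatocyte markers to 294 to 1726 TPM against 129 to 571 TPM. The part of these cells in the rises was not tested.

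In numbers, LPS changed 7 of 17 tested members in BALB/cJ (6 higher, 1 lower), 6 of 16 in C57BL/6J (5 and 1) and 8 of 18 in CB6F1/J (7 and 1). The background was 32.1%, 38% and 39.4% of all genes tested, near the members' own shares of 41.2%, 37.5% and 44.4%. Selp in each genotype, and Sele and Itgax in BALB/cJ and CB6F1/J, passed the 8 TPM filter through the LPS libraries alone. Their mean TPM had to differ. The splits depend on scaling. With libraries scaled by their totals, the median of all genes in the 3 comparisons was -0.48, -0.59 and -0.72, and the members split 6 higher and 2 lower, 5 and 5, and 6 and 6. The members called lower only on that scale were Itgam in all 3 genotypes, Icam2, Itgb7 and Pecam1 in C57BL/6J and CB6F1/J, and Selplg in CB6F1/J. Selplg went from 73.8 and 81.8 to 44.2 and 41.4 TPM in C57BL/6J, which is a TMM-scaled difference of -0.31 (SE 0.14, adjusted p = 0.105). Pecam1 went from 83.02 and 91.6 to 38.98 and 27.99 TPM there, at -0.84 (SE 0.17, adjusted p = 0.0121). Icam1, Vcam1, Itga5 and Selp rose, and Itgb5 fell, on either scale in each genotype.

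**Figure D3:**
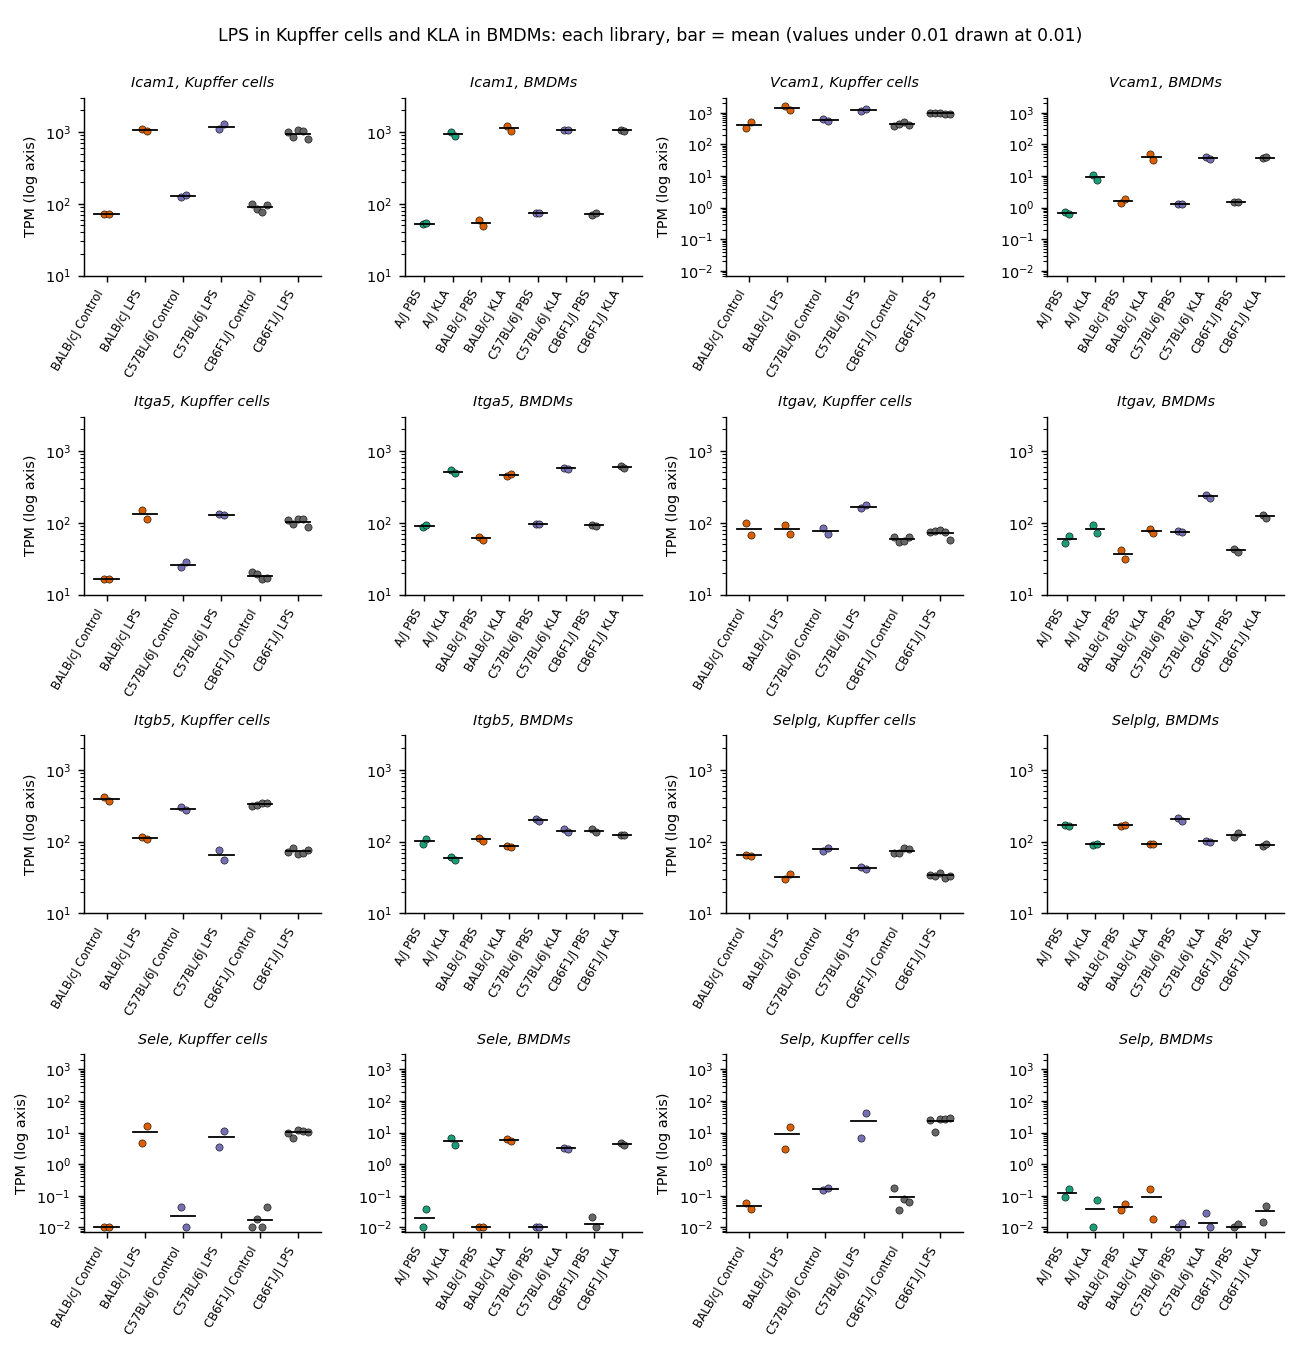
Levels in TPM (log axis) of 8 members in Kupffer cells without and with LPS and in BMDMs with PBS and KLA, each point 1 library and each bar the mean, with values under 0.01 drawn at 0.01. Icam1 is at 796 TPM or more in each endotoxin-treated library, Vcam1 starts near 1 TPM in BMDMs and at 339 TPM or more in control Kupffer cells, and Selp rises in Kupffer cells while it stays at or under 0.165 TPM in BMDMs.

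The genes around the integrins were called in both directions under LPS, beside 32.1% of all genes tested in BALB/cJ, 38% in C57BL/6J and 39.4% in CB6F1/J. Of the integrin adaptors 4 of 20 were called in BALB/cJ (4 higher), 9 of 21 in C57BL/6J (6 higher, 3 lower) and 6 of 20 in CB6F1/J (5 and 1). Tns3, a tensin that binds beta chains, rose by 2.28, 2.91 and 2.64, and Lims1 and Rap1b rose in each genotype. Integrin ligands were called 4 of 7, 4 of 6 and 4 of 7 times, all higher, and were the plasma proteins Fga, Fgb, Fgg and Vtn, which hepatocytes make. Hepatocyte marker sums are given above, and the part of hepatocytes in these calls was not tested. Of other vascular adhesion molecules 6 of 9 (4 higher), 7 of 10 (3 higher) and 8 of 9 (4 higher) were called, with Cd44, a hyaluronan receptor, up by 1.69, 1.43 and 1.78 and Stab1, a scavenger receptor of sinusoids and macrophages, at -1.76, -2.48 and -2.51. Of the enzymes that build selectin ligands 6 of 7, 2 of 6 and 2 of 5 were called, and Tpst1, a tyrosine sulfotransferase, was higher by 1.27, 2.26 and 2.19.

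KLA in BMDMs raised Icam1, Vcam1 and Itga5 in each genotype. Icam1 went from 52.2 and 53.9 to 1010.0 and 879.7 TPM in A/J, 60.2 and 49.6 to 1229.6 and 1033 in BALB/cJ and 75.3 and 75.03 to 1071 and 1065 in C57BL/6J. The differences were 4.42, 4.62, 4.04 and, in CB6F1/J, 4.14, with adjusted p from 5.75e-16 in C57BL/6J to 1.43e-06 in CB6F1/J. Vcam1, under 2 TPM with PBS, reached 11.1 and 7.31 TPM for A/J, 48.03 and 33.1 for BALB/cJ, 38.8 and 35.4 for C57BL/6J and 36.6 and 39.1 for CB6F1/J. The A/J libraries lay below all others, at a difference of 4.04 (SE 0.26, adjusted p = 6.94e-06), beside 4.93, 5.08 and 4.88. BMDM Vcam1 after KLA was still lower than in any Kupffer library, where the lowest was 87.6 TPM. Itga5 rose by 2.77, 3.17, 2.79 and 2.98, to 446 to 615 TPM.

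The Itgav response of BMDMs ranged from 0.75 in A/J to 1.85 in C57BL/6J. It went from 52.3 and 64.7 to 92.3 and 71.1 TPM in A/J (0.75, SE 0.18, adjusted p = 0.0214, under the fold limit). It went from 41.2 and 31.5 to 82.98 and 72.7 TPM in BALB/cJ (1.35, SE 0.14, adjusted p = 2.57e-05) and from 76.4 and 73.8 to 243 and 223 TPM in C57BL/6J (1.85, SE 0.09, adjusted p = 8.81e-12), and in CB6F1/J the difference was 1.84 (SE 0.09, adjusted p = 1.53e-05). The response differed between strains, at -1.13 (SE 0.23, adjusted p = 0.0124) for A/J minus C57BL/6J, the single call among 15 members (background 2.62%). It was lost without A/J PBS replicate 2 (-0.92), A/J KLA replicate 2 (-0.96), C57BL/6J PBS replicate 1 (-1.12) or 2 (-1.06) or C57BL/6J KLA replicate 1 (-1.05). The BALB/cJ minus C57BL/6J difference of the response was -0.48 (SE 0.23, adjusted p = 0.253).

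Itgal rose in BALB/cJ BMDMs, from 32.7 and 18.6 to 73.5 and 77.2 TPM (1.80, SE 0.27, adjusted p = 0.00235), in C57BL/6J (1.04, SE 0.11, adjusted p = 2.51e-06) and in CB6F1/J (1.26, SE 0.18, adjusted p = 0.00350), and was at 0.92 (SE 0.08, adjusted p = 2.57e-06) in A/J, under the fold limit. The C57BL/6J call was lost without PBS replicate 2 (0.86), and under library totals it and the CB6F1/J call stood at 0.82 and 0.96. Itga4 was called in CB6F1/J alone (1.16, SE 0.10, adjusted p = 0.000218; 0.86 under library totals) and was at 0.79, 0.88 and 0.81 in the inbred strains. In all, 3 of 14 members were called in A/J (background 12.1%), 5 of 14 in BALB/cJ (14.1%), 5 of 14 in C57BL/6J (17.1%) and 6 of 14 in CB6F1/J (12.3%), all higher. Vcam1 passed the 8 TPM filter through the KLA libraries alone in each genotype, so its mean TPM had to differ. Library totals moved the median of all genes to between -0.24 and -0.31 and added Selplg in C57BL/6J, lower at -1.03. Sele appeared in KLA BMDMs of every genotype, at 6.89 and 4.08 TPM for A/J, 6.07 and 5.49 for BALB/cJ, 3.38 and 2.93 for C57BL/6J and 4.75 and 3.93 for CB6F1/J, against at most 0.039 TPM with PBS. These cultures held 4.63 to 13.4 TPM of the large vessel markers. Selp stayed at or under 0.165 TPM. The adaptor list had 3 of 23, 3 of 22, 5 of 23 and 1 of 23 calls, the ligands 1 of 6, 0 of 8, 1 of 7 and 0 of 7, the other adhesion molecules 2 of 7, 2 of 7, 3 of 8 and 3 of 7, all higher, and the selectin ligand enzymes 2 of 6, 1 of 5, 0 of 5 and 1 of 5.

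On the AMLN diet, CD11c mRNA was higher in the C57BL/6J Kupffer libraries. Itgax (chr7:128129526-128150657, plus strand) went from 2.38 and 3.48 to 219.9, 123, 164 and 189.6 TPM, a difference of 6.12 (SE 0.35, adjusted p = 2.33e-05). In A/J it was at 5.79 and 5.25 TPM in controls and 85.8, 12.2, 54.7 and 46.2 TPM on the diet, without overlap, at 3.35 (SE 0.79, adjusted p = 0.152), not called by edgeR and called by DESeq2. In BALB/cJ it was at 2.73 and 3.37 TPM and 4.84, 9.08 and 7.85 TPM. The BALB/cJ minus C57BL/6J difference of the diet effect was -4.92 (SE 0.83, adjusted p = 0.00685). It was lost without BALB/cJ Control replicate 2 (-4.76) or C57BL/6J Control replicate 1 (-4.64) or 2 (-5.24). Dendritic cell markers in C57BL/6J summed to 23.01 to 26.1 TPM on the diet and 48.5 to 53.4 TPM in controls. Monocyte markers were at 86.1 to 127 and 116 to 167 TPM. The study describes Kupffer cells recruited from monocytes in C57BL/6J mice with NASH. The part of such cells, or of other cells, in the Itgax values was not tested.

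C57BL/6J had 4 calls among 17 tested members (background 13.8%). Besides Itgax these were Itga6, from 0.559 and 0.206 to 12.5, 5.17, 5.69 and 10.6 TPM (4.65, SE 0.69, adjusted p = 0.00202), Itga5, from 23.9 and 28.2 to 49.5, 42.6, 45.2 and 45.5 TPM (1.03, SE 0.10, adjusted p = 3.91e-05), and Pecam1, which fell from 83.02 and 91.6 to 23.9, 52.1, 35.96 and 24.6 TPM (-1.13, SE 0.35, adjusted p = 0.0329). Itgax and Itga6 passed the 8 TPM filter through the AMLN libraries alone, so their mean TPM had to differ. Itga5 sits at the fold limit and was lost without Control replicate 1 (0.90) or AMLN replicate 1 (0.99) and under library totals (0.99). Pecam1 was lost without Control replicate 1 (-1.22) or 2 (-1.03) or AMLN replicate 1 (-0.99), 3 (-1.16) or 4 (-1.003). LSEC markers were lower in these AMLN libraries (289 to 462 TPM) than in controls (572 to 647 TPM), and their part in the Pecam1 value was not tested. In the same libraries the integrin ligands Spp1 (osteopontin) and Fn1 (fibronectin) rose by 6.68 and 2.72, 2 of 5 ligands tested. The other lists had 3 of 21 adaptors, 2 of 11 other adhesion molecules (Alcam at 5.70) and 3 of 7 selectin ligand enzymes called.

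In BALB/cJ the diet calls were Itga1 and Jam2, both high in LSECs, 2 of 18 tested members (background 3.42%). Both passed the 8 TPM filter through the AMLN libraries alone, so their mean TPM had to differ. Itga1 went from 0.104 and 0.171 to 8.05, 8.36 and 38.7 TPM (7.03, SE 1.12, adjusted p = 0.0357) and Jam2 from 0.193 and 0.317 to 6.48, 9.56 and 39.4 TPM (6.14, SE 1.10, adjusted p = 0.0446). By counts the ratios were 129 (interval 76.8 to 236.1) and 69.3 (45.2 to 112.1), and AMLN replicate 3 was the highest for both. LSEC markers summed to 1063 to 3893 TPM in these AMLN libraries and 378 to 421 TPM in controls, and their part was not tested. Both calls were lost without Control replicate 1 (6.69 and 5.81), Control replicate 2 (7.40 and 6.52) or AMLN replicate 1 (7.37 and 6.54), and Jam2 also without AMLN replicate 2 (6.49). Of the lists, 8 of 17 ligands rose (Lama4 at 7.29, Nid1 at 6.47), 5 of 15 other adhesion molecules rose (Mcam at 7.98, Emcn at 7.83), 3 of 26 adaptors rose and 0 of 7 selectin ligand enzymes were called. In A/J edgeR called 0 of 17 members (background 0.0504%), with 4 at an unadjusted p under 0.05, while DESeq2 called Itgax and Jam2, and 0 genes of the 4 lists were called.

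The diet effect differed between strains for 4 of 20 members (background 3.1%). Beside Itgax these were Itga1, Itgb2 and Itgb7. Itgb2 went from 272 and 266 to 421, 428, 420.4 and 346 TPM in C57BL/6J (0.81, SE 0.10, adjusted p = 0.000207, under the fold limit) and from 328 and 255 to 173, 196 and 180.5 TPM in BALB/cJ (-0.71, SE 0.19, adjusted p = 0.126). The groups did not overlap in either strain and lay in opposite directions, and the difference of the effects was -1.53 (SE 0.26, adjusted p = 0.00697), lost without BALB/cJ Control replicate 1 (-1.33) or C57BL/6J Control replicate 1 (-1.51) or 2 (-1.53). Itgb7 was at 16.2, 14.1, 26.6 and 21.3 TPM on the diet in C57BL/6J, below both controls, at 9.74, 14.5 and 8.44 TPM in BALB/cJ and at 201, 256, 185 and 136 TPM in A/J, above the controls of their own strain. The 3 differences were not called, at -1.20 (SE 0.42, adjusted p = 0.0529), 1.40 (SE 0.30, adjusted p = 0.0656) and 1.25 (SE 0.43, adjusted p = 0.356), but their difference was, at 2.60 (SE 0.61, adjusted p = 0.0248) for BALB/cJ minus C57BL/6J.

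The Itgb7 difference was lost without A/J Control replicate 2 (2.60), BALB/cJ Control replicate 1 (2.58) or 2 (2.63), C57BL/6J Control replicate 2 (1.83) or C57BL/6J AMLN replicate 1 (2.52), 2 (2.48) or 4 (2.64). The Itga1 difference, 5.66 (SE 1.25, adjusted p = 0.0195), was lost without any 1 of the 6 control libraries (values from 5.17 to 6.03), A/J AMLN replicate 2 (5.67) or 3 (5.67) or any C57BL/6J AMLN library (5.62, 5.65, 5.69 and 5.69). Its sign did not change.

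**Figure D4:**
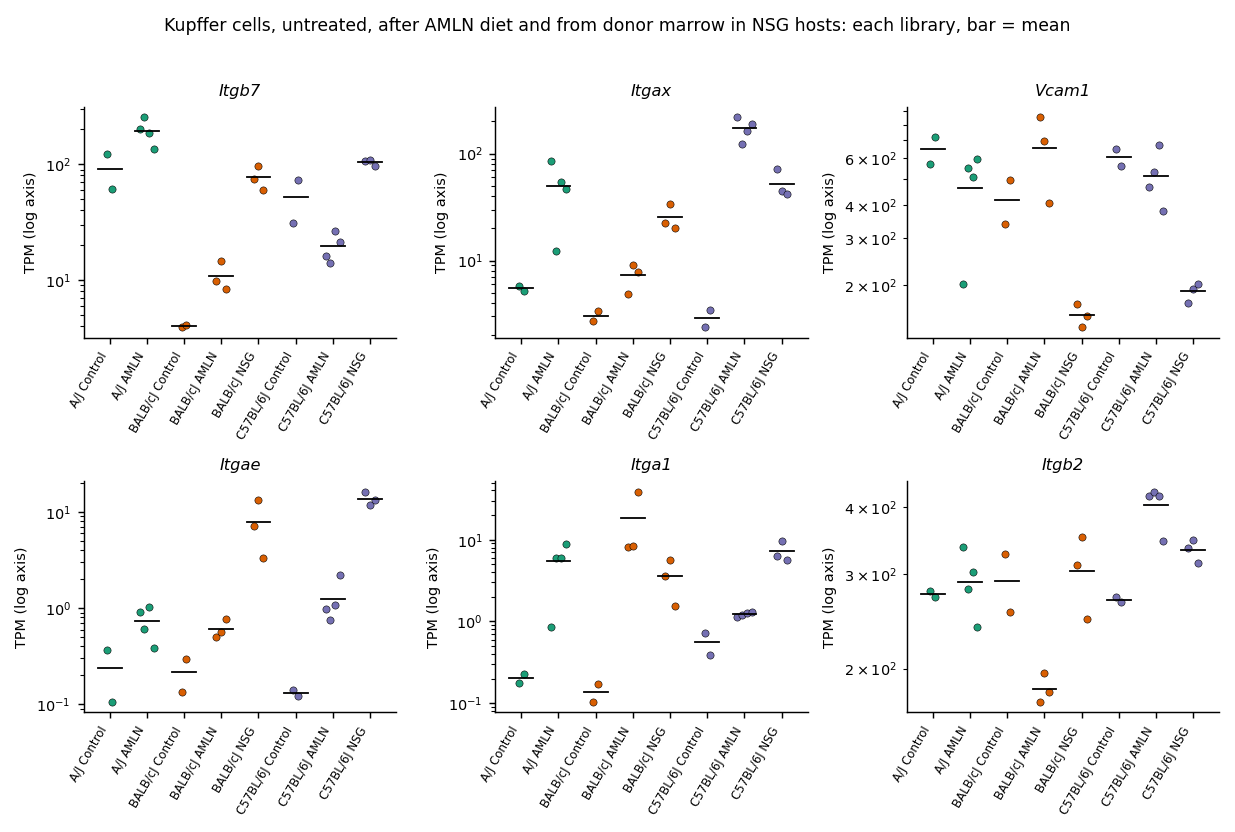
Levels in TPM (log axis) of 6 members in Kupffer cells of the inbred strains, untreated, after the AMLN diet and, for BALB/cJ and C57BL/6J, from donor marrow in NSG hosts, each point 1 library, each bar the mean, with values under 0.05 drawn at 0.05. Itgb7 is at 3.91 and 4.06 TPM in untreated BALB/cJ cells and at 60.5 TPM or more in marrow-derived ones, Itgax is at 123 TPM or more in each C57BL/6J AMLN library, and Vcam1 is lower in the NSG libraries than in the controls.

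In NSG hosts Itgb7 was high in donor cells of both strains. Donor-derived Kupffer cells held 75.2, 96.98 and 60.5 TPM from BALB/cJ marrow and 107, 108 and 97.3 TPM from C57BL/6J marrow, groups that still did not overlap, at -0.39 (SE 0.14, adjusted p = 0.0804). Against untreated BALB/cJ Kupffer cells the donor cells were 4.26 (SE 0.21, adjusted p = 5.77e-07) higher in Itgb7, while the C57BL/6J difference was 0.96 (SE 0.39, adjusted p = 0.119). Host, marrow origin, busulfan, sorting gate and age at harvest differ together between donor-derived and untreated cells and cannot be told apart. Between the donors edgeR called 0 of 17 members (background 3.63%), with 7 at an unadjusted p under 0.05, and DESeq2 called 1. Itgam was lower in BALB/cJ donor cells (20.4, 16.4 and 15.1 TPM) than in C57BL/6J donor cells (38.3, 27.1 and 33.95 TPM) at -0.89 (SE 0.14, adjusted p = 0.000645), under the fold limit, and CD11b was in the gate.

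Vcam1 was lower in donor-derived cells of both strains. It was at 170.1, 139 and 153 TPM in BALB/cJ and 172, 194 and 203 TPM in C57BL/6J donor cells, below every untreated library of those strains, at -1.45 (SE 0.17, adjusted p = 0.000476) and -1.70 (SE 0.11, adjusted p = 1.09e-06). CB6F1/J donor cells were at 216, 163 and 87.6 TPM, which are TPM of all reads, while those of the untreated hybrids are of perfectly matching reads, so the hybrid groups were not compared. Itgax was higher, at 22.2, 33.9 and 20.3 TPM in BALB/cJ (3.05, SE 0.24, adjusted p = 4.31e-05) and 71.4, 44.4 and 41.5 TPM in C57BL/6J (4.14, SE 0.32, adjusted p = 0.000110) donor cells, but at 2.50, 3.56 and 5.79 TPM in the hybrid donors. Itgae, the alpha chain CD103 that pairs with Itgb7, rose in C57BL/6J donor cells from 0.141 and 0.121 to 16.3, 11.8 and 13.5 TPM (6.64, SE 0.31, adjusted p = 2.24e-07), a ratio of 106.4 by counts (interval 51.5 to 265.3). It was at 7.15, 13.2 and 3.34 TPM in BALB/cJ donor cells and no higher than 0.52 TPM in hybrid donor cells. Itga5 was lower in C57BL/6J donor cells (-1.02, SE 0.19, adjusted p = 0.00278), lost without Control replicate 2 (-0.87), NSG replicate 2 (-0.93) or NSG replicate 3 (-0.92) and under library totals (-0.97).

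These made 3 of 16 calls in BALB/cJ (background 4.82%) and 4 of 17 in C57BL/6J (background 8.51%). Itgax in both strains, Itgb7 in BALB/cJ and Itgae in C57BL/6J passed the 8 TPM filter through the donor libraries alone. Their mean TPM had to differ. Lymphocyte markers summed to 87.9 to 386 TPM in BALB/cJ and 339 to 526 TPM in C57BL/6J donor libraries, against 0.888 to 1.38 and 5.78 to 13.9 TPM in controls and 16.5 to 25.6 TPM in hybrid donors. Monocyte markers summed to 125 to 194 and 186 to 228 TPM against 10.5 to 20.5 and 116 to 167 TPM, and to 455 to 638 TPM in hybrid donors. Dendritic markers summed to 37.5 to 79.9 and 74.7 to 114 TPM against 28.6 to 35.01 and 48.5 to 53.4 TPM. Itgae, Itgax and Itgb7 are also expressed by lymphocytes and dendritic cells, and the part of those cells was not tested. The lists held few calls, 1 of 21 and 1 of 22 adaptors, 1 of 4 and 2 of 6 ligands, 2 of 10 and 3 of 12 other adhesion molecules and 1 of 8 and 0 of 6 selectin ligand enzymes.

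Reads over variants in the CB6F1/J hybrid gave the share of each parental allele in the same cell. In at least 1 setting Itga6, Itga9, Itgal, Itgav, Vcam1 and Selplg passed both the limit of 10 variant reads and that of 8 TPM, and Icam1 had 0 variant reads. By the call limits edgeR called 0 of 5, 5, 4, 5 and 5 members tested in untreated Kupffer cells, LPS Kupffer cells, PBS BMDMs, KLA BMDMs and NSG Kupffer cells, with 3, 4, 4, 5 and 3 at an unadjusted p under 0.05. The background was 3.81%, 5.34%, 1.74%, 4.01% and 2.93%. All differences tested stayed under the fold limit, between -0.59 for Itgav after LPS and 0.11 for Vcam1 after KLA.

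Itgav (chr2:83722303-83806917, plus strand) held a smaller BALB/cJ share under endotoxin. The BALB/cJ share was 48.9, 44.98, 48.6 and 48.3% in the 4 untreated Kupffer libraries and 36.8, 42.5, 38.6, 39.003 and 39.2% in the 5 LPS libraries. The groups did not overlap, and the mean fell by 8.48 points, from 47.7 to 39.2% (SD 1.84 and 2.06). A two-sided exact permutation test over libraries gave p = 0.0159, the smallest p it can give. In BMDMs the share was 46.2 and 45.2% with PBS and 40.8 and 40.01% with KLA, and in NSG donor cells 47.9, 49.7 and 49.4%. The allele difference was -0.59 (SE 0.05, adjusted p = 0.00140) after LPS and -0.54 (SE 0.03, adjusted p = 0.00257) after KLA, beside -0.11 (SE 0.05, adjusted p = 0.171) in untreated Kupffer cells. The share was tested for 5 members after their values were seen, and 0.0159 is 0.0398 after Benjamini-Hochberg adjustment. Itgal moved the other way by 1.39 points, to 48.2 from 46.8% (p = 0.0159, adjusted 0.0398, exact permutation), and Itga9, Vcam1 and Selplg gave p = 0.54, 0.73 and 0.762. Between 3327 and 5291.5 variant reads a library stood behind the Itgav share after LPS.

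Selplg leaned to the C57BL/6J allele in each setting. Its BALB/cJ share was 41.5, 41.3, 41.8 and 40.01% in untreated Kupffer cells and 42.7 and 42.5% in PBS BMDMs, with log2 differences of -0.50 (SE 0.03, adjusted p = 0.000500) and -0.41 (SE 0.01, adjusted p = 0.0428). The inbred Kupffer cells were at 65.9 and 63.2 TPM in BALB/cJ and 73.8 and 81.8 TPM in C57BL/6J, at -0.26 (SE 0.09, adjusted p = 0.0742), and inbred BMDMs at -0.26 (SE 0.10, adjusted p = 0.0456). Itga9 leaned the other way in BMDMs, where it was under 8 TPM and so was not tested, with a BALB/cJ share of 64.6 and 64.7% with PBS and 65.2 and 66.9% with KLA from 589 to 849 variant reads a library. In untreated Kupffer cells its share was 49.02, 48.5, 46.99 and 47.7%. Itga10, Itgb3 and Jam2, also over 10 variant reads in Kupffer cells, were under 2 TPM there and not tested. Itga6 in BMDMs had a BALB/cJ share of 40.7 and 41.4% with PBS and 40.98 and 41.5% with KLA. Vcam1 was close to even, at 48.9, 49.7, 49.5 and 49.99% in untreated Kupffer cells, from 16687.5 to 27443.5 variant reads a library. Itgal was at 46.7, 46.9, 46.6 and 46.9% in untreated Kupffer cells.

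**Figure D5:**
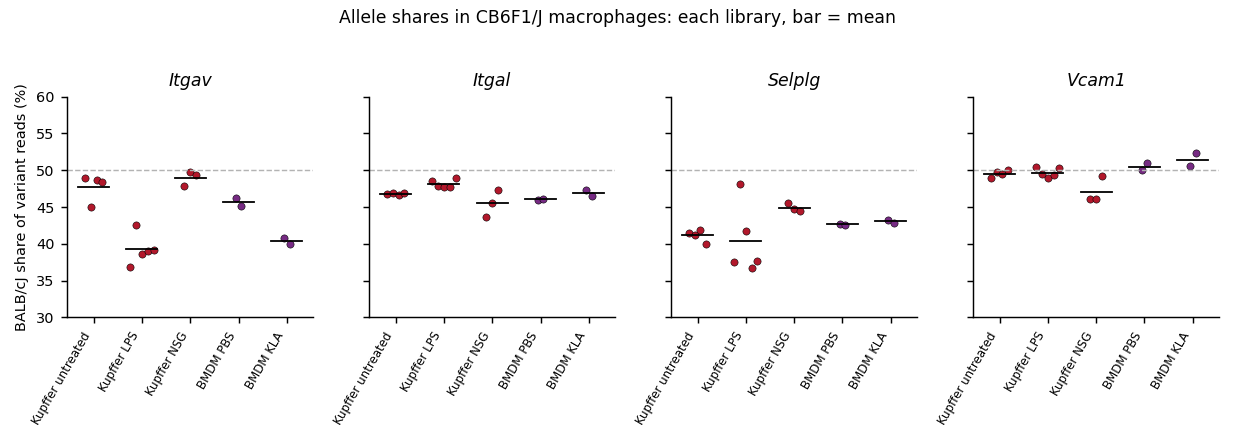
Share of variant reads on the BALB/cJ allele, in percent, for 4 members in CB6F1/J macrophages, each point 1 library and each bar the mean, with a dashed line at 50%. The axis runs from 30 to 60%. The Itgav share is at 36.8 to 42.5% in LPS Kupffer cells and at 45.0 to 48.9% in untreated ones, while Vcam1 lies near 50% in both.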

How the data were processed

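The authors aligned poly(A) RNA-seq reads with STAR to the genome of each strain, shifted them to mm10 and counted them over exons with HOMER. They deposited raw counts and TPM per gene, and for CB6F1/J a table for each parental genome, of perfectly matching reads or, for NSG hosts, of all reads. No strand setting is stated in these sources. Of the deposited tables, which numbered 20, the analysis took 14, since the other 6 held no value needed here. Counts were tested as deposited with edgeR 4.0.16 (R 4.3.3, TMM, robust quasi-likelihood) after filterByExpr and a mean over 8 TPM in a group compared, with Benjamini-Hochberg adjustment over all genes tested. For the 28 libraries of BMDMs and hybrids the authors deposited estimated counts in steps of 0.5, which were rounded. Hybrid responses used counts summed over both genomes, so a read that matched both counted in each, and hybrid TPM is the mean of both. Allele tests took library and allele as terms, over genes on autosomes that averaged 10 or more variant reads. Alternatives were DESeq2 1.42.0 (test and size factors), library totals, filters, 1 fit over all Kupffer libraries, a replicate block, and each library left out. Single libraries were not left out in the cell type comparisons. Scaling by library totals and leaving out 3 LSEC libraries were chosen after the data were seen. The deposited TPM columns sum to 501281 to 595601 in inbred libraries. Where nothing says that libraries of a group came from separate mice or cultures, p-values measure the spread between these libraries. The fits were tested on simulated data. The members and the 4 gene lists (integrin adaptors, integrin ligands, other vascular adhesion molecules and selectin ligand enzymes) were chosen with earlier results of these data known. Named genes are the called members, with members under the limits given as values.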

Additional observations from a re-analysis of the deposited data

Results flagged for a closer look

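In groups of 4 to 10 libraries, 8 of 153 member and group pairs tested (5.2%) had 1 library far from the others by Dixon's criterion, and chance gives about 1 in 20. Pecam1 was at 481.31 TPM in LSEC BALB/cJ replicate 1, against 579.91 to 599.73 TPM in the others, and that library is 1 of the 3 high in Alb. Stellate A/J replicate 3 was apart in Itga2b (25.07 TPM, others 36.79 to 38.0) and in Itgb7 (48.06 TPM, others 12.57 to 18.42), and its Kupffer markers were the highest of the stellate libraries, at 14003 TPM. Icam2 was at 30.43 TPM in stellate BALB/cJ replicate 4 (others 53.68 to 57.48). Itgb2 was at 345.92 TPM in C57BL/6J AMLN replicate 4 (others 420.42 to 428.09). Pecam1 was at 128.37 TPM in untreated CB6F1/J replicate 2 (others 64.52 to 74.9). After LPS, Itgav was at 56.96 TPM in CB6F1/J replicate 5 (others 73.93 to 78.5) and Selp at 10.35 TPM in replicate 2 (others 25.62 to 28.09).

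Effects that differed between groups by the test of the difference itself numbered 11. The KLA response of Itgav differed by -1.133 between A/J and C57BL/6J. The diet effect differed between BALB/cJ and C57BL/6J by 5.664 for Itga1, -4.916 for Itgax, -1.526 for Itgb2 and 2.603 for Itgb7. Between Kupffer cells and BMDMs the BALB/cJ minus C57BL/6J effect differed by 1.969 for Itgal, 1.205 for Itgav and 1.392 for Itgb5. The A/J minus BALB/cJ effect differed by 3.969 for Itgb7 and 1.882 for Vcam1, and the A/J minus C57BL/6J effect by 2.178 for Pecam1.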

How the results depend on the processing

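Of 153 called member results, 124 stayed past the limits under each of the alternatives run, 0 changed sign, and the others fell below a limit in at least 1. The cell type comparisons, which gave 20, 14, 16 and 17 of these results, had no fit with a single library left out. The counts of members called moved as follows, and the cause was not tested except that looser filters test more genes and a left-out library leaves fewer samples. Without the limit on mean TPM, calls were 2 and 4 for untreated Kupffer cells (A/J and BALB/cJ against C57BL/6J), 5, 5 and 3 for BMDM strains (A/J against BALB/cJ, A/J against C57BL/6J, BALB/cJ against C57BL/6J), 3 for hepatocyte strains, 11 and 14 for LPS in C57BL/6J and CB6F1/J, 8, 10, 11 and 10 for KLA (A/J, BALB/cJ, C57BL/6J, CB6F1/J), 9 and 13 for the diet in BALB/cJ and C57BL/6J, 1 between NSG donors, and 13 and 14 for NSG against controls. With no filter they were 0 for A/J against BALB/cJ Kupffer cells, 5, 5 and 3 for BMDM strains, 6 for hepatocyte strains, 11 and 13 for LPS in C57BL/6J and CB6F1/J, 1 for the strain difference in the LPS response, 8, 9, 11 and 10 for KLA, 3 for the strain difference in the KLA response, 1, 8 and 11 for the diet, 1 between NSG donors, 11 and 13 for NSG against controls and 26 between LSECs and hepatocytes. In 1 fit over all Kupffer libraries they were 0 and 1 for A/J and BALB/cJ against C57BL/6J and 3 and 5 for the diet in A/J and BALB/cJ. DESeq2 gave 2 for BMDMs of BALB/cJ against C57BL/6J, 2 for the LPS strain difference, 2 and 4 for the diet in A/J and BALB/cJ, and 1 between NSG donors. Library totals gave 0 for A/J against C57BL/6J Kupffer cells, 1 for the same BMDM contrast and 10 for LPS in C57BL/6J.

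With a replicate block, calls were 2 for BMDMs of BALB/cJ against C57BL/6J, 5 for the diet in BALB/cJ, 2 for the strain difference in the diet effect (Itga1 at 5.53 and Itgb7 at 2.47 lost) and 5 for NSG against controls in BALB/cJ. The block also ended the calls of Pecam1 on the diet (-1.08) and Itga5 in NSG donor cells (-0.93) in C57BL/6J. Same-numbered libraries share only a number: their deviations correlated from -0.428 to 0.602 in LSECs, where 3 of 12 libraries correlated best with their own number.

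With each library left out in turn, calls ranged from 0 to 1, 0 to 1 and 0 to 2 for the Kupffer strain comparisons, 0 to 1, 1 to 3 and 1 to 2 for BMDM strains, 4 to 7 for LSECs, 8 to 10 for stellate cells and 0 to 0 for hepatocytes. They ranged from 5 to 8, 6 to 8 and 7 to 8 for LPS (0 to 0 for its strain difference), 2 to 4, 5 to 6, 4 to 5 and 6 to 6 for KLA (0 to 2 for its strain difference), 0 to 1, 0 to 3 and 1 to 4 for the diet (0 to 5 for its strain difference), 0 to 2 between NSG donors, 3 to 6 and 3 to 4 for NSG against controls, and 4 to 6 for Kupffer cells against BMDMs. Allele fits with 1 BMDM library left could not be made. With 2 libraries in many groups, a p past the limit does not show that values were equal.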
